A study of Mus musculus with 5 samples.

Results

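TGF-beta and BMP signalling was examined through 51 genes for its ligands, receptors, SMAD proteins, inhibitors and Id targets in mouse satellite cells, the stem cells of skeletal muscle. The genes were picked by symbol from the rows of the deposited table, and 50 of the 51 were found among its 22683 genes. Grem1, encoding the BMP antagonist gremlin, was not analysed here. Of the 50 genes, 49 reached 10 normalized counts in 2 or more libraries and were tested. The study compared sorted quiescent satellite cells of mdx mice, a model of Duchenne muscular dystrophy with a mutation in the dystrophin gene, with those of wild-type mice. RNA was sequenced from 3 mdx and 2 wild-type libraries. Strain, sex, age, muscle, sorting gate and any pooling of animals are not given in the labels. Nothing states that each library is a separate mouse, so p-values cover only library-to-library spread, which may be technical.

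Ligands of the TGF-beta family bring together type I and type II receptors, and the type II receptor switches on the kinase of the type I receptor. TGF-betas, activins and myostatin signal mainly through SMAD2 and SMAD3, BMPs mainly through SMAD1, SMAD5 and SMAD9, and both arms share SMAD4. In muscle, myostatin restrains growth, TGF-beta is known for holding back myogenic differentiation and for driving fibrosis, and BMP signals with their Id targets keep satellite cells undifferentiated.

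Values are normalized counts, that is, reads per gene scaled by the authors to a common level between libraries. The libraries summed to between 12473348 and 15930638 normalized counts in mdx, and to 15217054 and 16825045 in wild type. RNA make-up moved with genotype: Gm26917 had 803592 to 1371309 in mdx against 53174 and 82217 in wild type, and Lars2 had 741 to 893 against 204680 and 225347. The mitochondrial ribosomal RNA gene mt-Rnr2 took 22.3% of mdx 1 and 11.7% of mdx 3, and in the other libraries the top gene took 3.40% to 6.44%. Dmd, the gene mutated in mdx, had 4642, 4116 and 3700 in mdx against 11826 and 9266 in wild type. Xist, which is transcribed from the inactive X chromosome of female cells, had 0, 0 and 12 in mdx against 30235 and 30176 in wild type, and the Y-linked gene Ddx3y had 966, 946 and 827 against 9 and 0, so genotype and sex cannot be told apart. Of 12 satellite cell markers, none was at 0, 2 were called higher and 7 lower, and their sum lay between 48662 and 69003 in mdx against 113874 and 123781 in wild type. Most of the fall of the sum lay in Sdc4 (2633 to 3261 in mdx against 30886 and 27833) and Chodl (4554 to 7456 against 27683 and 29240). Of the 12, 8 lay below wild type in every mdx library and 3 above. Among the latter was Pax7 (12767, 9751 and 14989 against 9103 and 7644), which was not called. Markers of other cells were higher in mdx. The sum of 12 endothelial markers was 21689 to 29818 in mdx against 2885 and 3394 in wild type (11 called higher, 1 lower), with Emcn, Ptprb, Cldn5 and Erg at 0 in wild type. The lower marker, Tek, had 1429, 1790 and 2025 in mdx against 3223 and 2568 in wild type, where it made up most of the sum. For 12 macrophage markers it was 10202 to 15305 against 456 and 586 (10 called higher), with C1qa, C1qb, C1qc, Fcgr3 and Mrc1 at 0 in wild type. For 12 genes marking fibro-adipogenic progenitors (mesenchymal cells of muscle) it was 79997 to 140168 against 17584 and 26170 (11 called higher, 1 lower), with Dpep1 and Mfap5 at 0 in wild type. The lower gene, Dpt, had 1852, 1757 and 2396 in mdx against 9675 and 9371 in wild type. Of 12 pericyte and smooth muscle markers, 6 were called higher and 1 lower (sum 29545 to 36356 against 15678 and 20059, none at 0), of 7 tenocyte markers 6 higher (7500 to 18286 against 73 and 155, with Tnmd, Thbs4 and Kera at 0 in wild type), of 10 Schwann cell markers 6 higher (6987 to 7764 against 6043 and 7285, with S100b, Cdh19 and Gfra3 among those at 0 in wild type) and of 9 myofiber markers 3 higher (28703 to 71912 against 3356 and 3960, none at 0). Most of the myofiber sum was Ttn, with 37164, 64744 and 23685 in mdx against 2475 and 2100 in wild type, and 6 of the 9 myofiber markers were not called. Neither of the 2 tested lymphocyte markers was called by limma, and neither had an unadjusted p under 0.05 (0 of 2). The sum of the 4 lymphocyte markers was 66 to 139 against 35 and 151, with Ms4a1 and Trac among those at 0 in wild type. In these sorted cells, more cells of a type and more RNA per cell cannot be told apart, and the part of these cells in the results below was not tested.

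The signalling genes moved in both directions. In mdx, 17 of the 49 tested genes were higher and 6 were lower by limma at an adjusted p under 0.05, that is, 34.7% and 12.2% of them. Of all 18199 genes tested, 14.6% were called higher and 10.3% lower. In this fit, the share of rises among the signalling genes was above the background and that of falls was near it. Of the 17 genes called higher, 3 were at 0 in both wild-type libraries and entered the test through mdx alone. So did 558 of the 2659 called higher among all genes. The median log2 fold change was 0.68 over the 49 genes and 0.13 over all tested genes, on the scale of log2(normalized count + 2). All mdx libraries lay above both wild-type libraries for 22 of the 49 genes (44.9%, against 28.2% of all tested genes) and below both for 9 (18.4%, against 23.8%). Higher in mdx were 5 of 12 tested ligands, 4 of 5 genes of processing and storage, 5 of 12 receptor genes and 3 of 7 inhibitors inside the cell. Lower were 2 receptor genes, 1 of 6 signalling SMADs, 2 of the 7 inhibitors inside the cell and 1 of 4 Id genes.

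**Figure D1:**
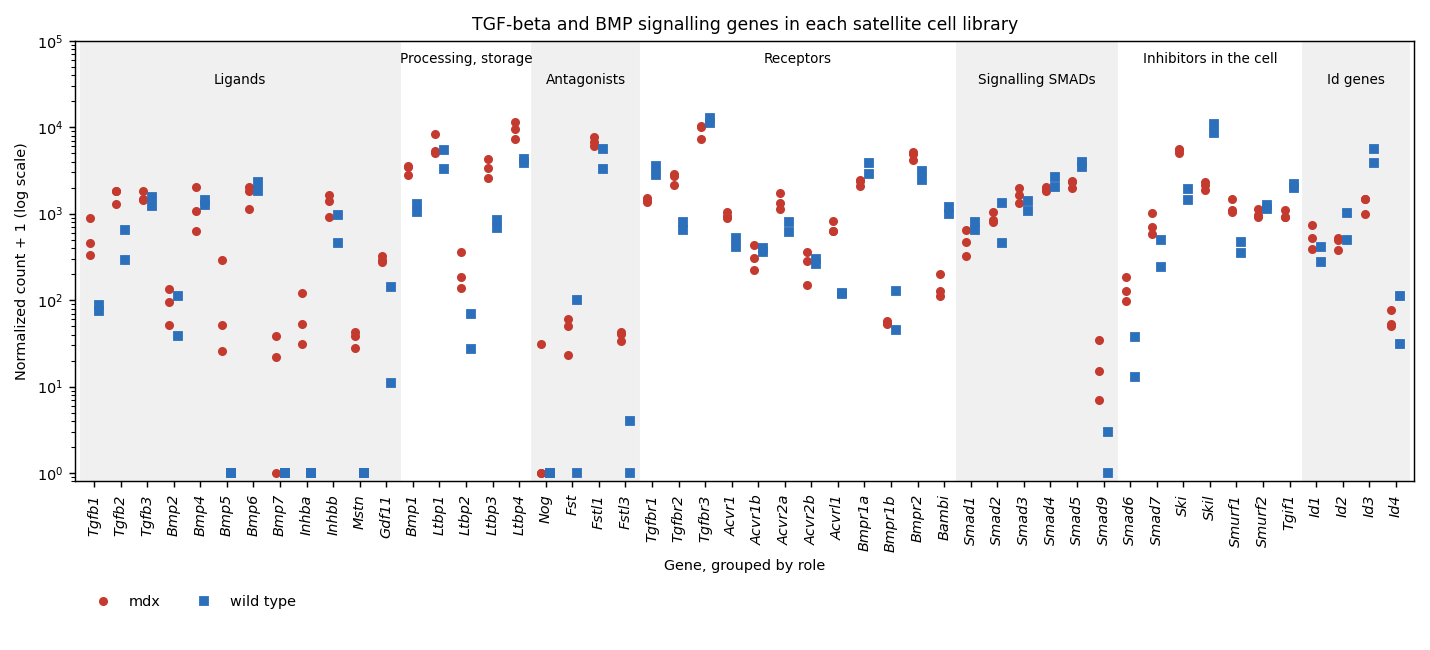
Normalized count + 1 (vertical log axis) of the 50 genes in each library, grouped by role. Circles are the 3 mdx libraries and squares the 2 wild-type libraries; a value of 0 sits at the bottom, as for Mstn and Inhba in both wild-type libraries, while Skil (1877 to 2351 in mdx against 8550 and 10981 in wild type) shows the groups apart.

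The calls depended on how the libraries were scaled for transcript length and GC content. The 17 genes higher in mdx had a median transcript length of 5.39 kb and a median GC content of 52.5%, the 6 lower genes 5.42 kb and 44.3%, and all tested genes 2.97 kb and 49.0%. After each library's trend with length and GC content was removed with its median kept, 12 genes were higher and 8 lower in mdx (60% of calls higher, against 73.9% as reported). Over all genes, 60.1% of calls were higher under this correction and 58.7% as reported. Of 18173 genes tested under it, 2141 were higher and 1422 lower. Among the 49 signalling genes, both the share of rises and that of falls were above this background. With the mean of each library taken as the centre instead, an alternative added after the data were seen, 6 were higher and 13 lower (31.6% of calls higher, against 31.2% over all genes). The median log2 fold change of all tested genes moved to -0.34. Of the 18173 genes, 1454 were then higher and 3199 lower, so both shares among the signalling genes were again above the background.

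Among the ligands, 5 of 12 were higher in mdx and none was lower by limma (at an unadjusted p under 0.05, 7 of the 12 were higher and 0 lower, and 6933 of all 18199 genes passed in either direction). Tgfb1, encoding the founding TGF-beta, had 328, 901 and 463 normalized counts in mdx against 73 and 88 in wild type. The ranges did not overlap, and mdx 2 stood highest. Tgfb1 rose by 2.65 on the log2 scale (SE 0.50, 95% interval 1.52 to 3.79, limma adjusted p = 0.00558). Tgfb2, a closely related ligand, had 1290, 1850 and 1810 in mdx against 648 and 288 in wild type. Each mdx library was above both wild-type libraries, and Tgfb2 rose by 1.91 on the log2 scale (SE 0.35, 95% interval 1.11 to 2.71, limma adjusted p = 0.00508). Tgfb3 had 1834, 1446 and 1462 in mdx against 1538 and 1238 in wild type, with overlapping ranges and a log2 difference of 0.19 (95% interval -0.31 to 0.68, limma adjusted p = 0.568). Within each library, Tgfb3 made up 37.5% to 58.8% of the normalized counts per kb of the TGF-beta ligand genes in mdx against 74.6% and 80.2% in wild type. The summed macrophage markers were at 12550, 15305 and 10202 in mdx against 456 and 586 in wild type, and their part in the rise of Tgfb1 was not tested.

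Several ligand genes were listed at 0 in wild type. Mstn, encoding myostatin, had 27, 37 and 42 in mdx and 0 in both wild-type libraries (limma adjusted p = 0.0344). Inhba, encoding the subunit of activin A, had 120, 52 and 30 in mdx and 0 in wild type (limma adjusted p = 0.0196). Bmp5 had 289, 25 and 50 in mdx and 0 in wild type (limma adjusted p = 0.023), most of it in mdx 1. All of these are low levels, and Bmp7, with 21, 0 and 37 in mdx against 0 in wild type, did not pass (limma adjusted p = 0.281). Mstn, Inhba and Bmp5 met the filter of 10 normalized counts through the mdx libraries alone, so their calls are no separate support for a rise. Their log2 fold changes depended on the number added before the log2. With 1 and 10 added in place of 2, they were 5.16 and 2.17 for Mstn, 5.87 and 2.78 for Inhba, and 6.18 and 3.10 for Bmp5. Mstn was not called with 10 added (limma adjusted p = 0.0577). Gdf11, encoding a close relative of myostatin, had 293, 272 and 327 in mdx against 142 and 10 in wild type (limma adjusted p = 0.0534). Its groups did not overlap, and the wild-type libraries differed widely between themselves.

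The most abundant BMP ligand genes did not pass the test. Bmp4, encoding a BMP ligand, had 1070, 632 and 2019 in mdx against 1425 and 1251 in wild type. Bmp6 had 1827, 1124 and 2036 in mdx against 1824 and 2293 in wild type. For both, the groups overlapped, and the log2 differences were -0.27 (95% interval -1.21 to 0.68) and -0.34 (95% interval -0.97 to 0.29; limma adjusted p = 0.677 and 0.391). Together they made up most of the normalized counts per kb of the BMP ligand genes, with Bmp4 at 51.3% ± 8.30 in mdx (SD, n = 3) against 52.2% ± 5.56 in wild type (SD, n = 2). Bmp6 was called lower after length and GC correction (log2 fold change -0.83, limma adjusted p = 0.0403). Bmp2 lay between 51 and 134 in mdx against 37 and 110 in wild type. Inhbb, encoding the subunit of activin B, had 1408, 922 and 1656 in mdx against 459 and 970 in wild type (limma adjusted p = 0.0906).

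Single libraries decided some of these ligand calls. The limma adjusted p of Tgfb1 was 0.0501 without mdx 3. That of Tgfb2 was 0.0545 without mdx 2 and 0.0601 without mdx 3, and that of Bmp5 0.070 without mdx 3. Mstn reached 0.0501 without mdx 2 and 0.0541 without mdx 3. Leaving out a wild-type library leaves 1, so such a fit has no wild-type spread and only its log2 fold change is given. For Gdf11 it was 4.64 without wild type 1 and 1.05 without wild type 2. For Inhbb it was 0.41 without wild type 1 and 1.49 without wild type 2.

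Genes for the processing and storage of ligands were higher in mdx in 4 of 5 cases. Bmp1, which despite its name encodes a metalloproteinase that cuts procollagens and other matrix proteins, had 3551, 2813 and 3506 in mdx against 1299 and 1046 in wild type. The LTBPs hold latent TGF-beta in the matrix. Ltbp3 had 3370, 2554 and 4244 in mdx against 833 and 690 in wild type, and Ltbp4 had 11437, 7281 and 9585 against 4264 and 3883. All 3 genes were apart in the genotypes. Their log2 fold changes were 1.49 for Bmp1 (SE 0.21, limma adjusted p = 0.00114), 2.13 for Ltbp3 (SE 0.25, limma adjusted p = 0.000473) and 1.19 for Ltbp4 (SE 0.20, limma adjusted p = 0.00352). Ltbp2, whose product does not bind latent TGF-beta, had 136, 355 and 185 in mdx against 26 and 68 in wild type (log2 fold change 2.24, SE 0.70, limma adjusted p = 0.0454). Ltbp1 had 5048, 5264 and 8281 in mdx against 5457 and 3322 in wild type, overlapped, and did not pass (log2 difference 0.50, 95% interval -0.12 to 1.13, limma adjusted p = 0.213). Per kb, Ltbp3 stood to Ltbp1 at 0.777, 0.565 and 0.597 in mdx against 0.178 and 0.242 in wild type.

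The rise of Ltbp4 ended after length and GC correction (log2 fold change -0.19, limma adjusted p = 0.432). It turned to a called fall with mean centring (-0.73, limma adjusted p = 0.0119). Ltbp2 lost its call after the correction (limma adjusted p = 0.267). It was also not called without mdx 1 (limma adjusted p = 0.0786), mdx 2 (0.161) or mdx 3 (0.127). The log2 difference of Ltbp1 was 0.86 without wild type 1 and 0.15 without wild type 2. Markers of fibro-adipogenic progenitors summed to 79997 to 140168 in mdx against 17584 and 26170 in wild type, and their part in the values of these genes was not tested.

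None of the 3 tested extracellular antagonist genes was called by limma (0 of 3; 2 had an unadjusted p under 0.05). Fstl1, encoding a secreted follistatin-like glycoprotein, was the most abundant of them, with 6675, 6068 and 7607 in mdx against 5554 and 3247 in wild type (log2 difference 0.67, 95% interval 0.14 to 1.20, limma adjusted p = 0.0671). Its genotypes did not overlap, and its log2 difference was 1.06 without wild type 1 and 0.28 without wild type 2. Fstl3, encoding an activin and myostatin antagonist, had 40, 33 and 42 in mdx against 3 and 0 in wild type (limma adjusted p = 0.0535). Fst, encoding follistatin, had 59, 49 and 22 in mdx against 99 and 0 in wild type, so that the wild-type libraries alone spanned the mdx values. Nog, encoding noggin, was listed at 30 in mdx 2 and at 0 in the other libraries and was not tested.

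Of the 12 receptor genes, 5 were higher and 2 lower in mdx, and the TGF-beta receptor partners were called in opposite directions. Tgfbr1, encoding the type I receptor for TGF-beta (chromosome 4, 47353222 to 47414931, mm10), had 1434, 1359 and 1536 in mdx against 2822 and 3521 in wild type. Its type II partner Tgfbr2 (chromosome 9, 116084293 to 116175360) had 2720, 2123 and 2845 in mdx against 810 and 648 in wild type. In neither gene did the genotypes overlap. Tgfbr1 fell by 1.13 on the log2 scale (SE 0.20, 95% interval -1.57 to -0.68, limma adjusted p = 0.00367), and Tgfbr2 rose by 1.81 (SE 0.22, 95% interval 1.30 to 2.32, limma adjusted p = 0.000647). The ratio of Tgfbr2 to Tgfbr1 in normalized counts per kb, which a library's size factor cannot move, was 1.35, 1.11 and 1.32 in mdx against 0.204 and 0.131 in wild type. The accessory receptor gene Tgfbr3, encoding betaglycan, was the most abundant receptor gene per kb, at 1521 on average in mdx and 1969 in wild type. It had 10420, 7304 and 10056 in mdx against 11181 and 12784 in wild type (log2 difference -0.39, 95% interval -0.81 to 0.04, limma adjusted p = 0.165). The plot of family make-up shows Tgfbr3 at 35.4% to 43.3% of the normalized counts per kb of the receptor genes without Bambi in mdx against 50.3% and 51.4% in wild type.

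The sequences before the start sites of Tgfbr1 and Tgfbr2, and of Ski and Tgif1 (SMAD co-repressor genes, described below), are shown because each pair acts at the same step and its members moved apart. They come from RefSeq (GRCm38.p6, the assembly of mm10), run 5′ to 3′ on the gene's strand, and leave out bases inside the gene as the deposited table places it. Capitals mark matches to GGCGCC, a GC-rich element bound by SMAD1 and SMAD5 complexes, or to CAGAC or its reverse complement GTCTG, the short SMAD-binding element.
Tgfbr1, chr4:47352972-47353221, plus strand: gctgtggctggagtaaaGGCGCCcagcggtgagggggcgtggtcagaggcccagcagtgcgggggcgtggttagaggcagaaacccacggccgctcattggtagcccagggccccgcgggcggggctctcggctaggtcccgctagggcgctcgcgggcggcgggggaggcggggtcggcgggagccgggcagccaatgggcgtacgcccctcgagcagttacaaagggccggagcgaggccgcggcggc
Tgfbr2, chr9:116175364-116175613, minus strand: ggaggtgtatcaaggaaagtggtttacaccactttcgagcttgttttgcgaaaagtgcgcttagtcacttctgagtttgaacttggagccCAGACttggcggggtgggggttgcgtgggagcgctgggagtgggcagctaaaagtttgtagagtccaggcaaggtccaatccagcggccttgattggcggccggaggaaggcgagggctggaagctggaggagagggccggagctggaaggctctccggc
Ski, chr4:155222593-155222785, minus strand: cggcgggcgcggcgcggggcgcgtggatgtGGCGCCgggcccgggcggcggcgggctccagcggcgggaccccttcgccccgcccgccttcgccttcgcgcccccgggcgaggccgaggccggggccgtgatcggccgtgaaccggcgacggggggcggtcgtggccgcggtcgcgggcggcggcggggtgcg
Tgif1, chr17:70853547-70853782, minus strand: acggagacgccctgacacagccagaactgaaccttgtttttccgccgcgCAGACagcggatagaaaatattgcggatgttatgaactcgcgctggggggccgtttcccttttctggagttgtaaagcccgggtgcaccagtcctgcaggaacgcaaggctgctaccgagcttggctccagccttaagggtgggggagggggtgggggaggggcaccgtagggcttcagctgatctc

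GGCGCC is its own reverse complement, so the search covers both strands. It begins 233 bases before the RefSeq start of Tgfbr1 and 220 before that of Ski. CAGAC begins 160 bases before the RefSeq start of Tgfbr2 and 201 before that of Tgif1. For Ski and Tgif1 this start lies inside the gene as the deposited table places it, so these distances include bases not printed. So in the printed windows each motif occurs with a gene that was higher and one that was lower. Where a gene had several windows, 2 for Tgfbr1 and 5 for Tgif1, the one farthest upstream was printed. The other Tgfbr1 window held CAGAC or GTCTG and not GGCGCC, and some Tgif1 windows held neither motif. In the 250 bases before each start site, GGCGCC was found in 11 of the 48 windows of the 36 signalling genes with an entry, or 22.9%, and in 9.59% of all 32851 windows. CAGAC or GTCTG was in 45.8% of the signalling gene windows and in 42.2% of all windows. Windows of the same gene overlap in part, since some genes have several start sites. Of the windows of genes higher in mdx, 4 of 17 held GGCGCC and 8 of 17 held CAGAC or GTCTG, against 2 and 6 of the 11 windows of lower genes, which belong to 4 genes.

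The other type I and type II receptor genes gave further differences. Acvrl1, encoding ALK1, a type I receptor known from endothelial cells, had 633, 823 and 625 in mdx against 117 and 119 in wild type. It rose by 2.52 on the log2 scale (SE 0.35, 95% interval 1.74 to 3.30, limma adjusted p = 0.00107), and endothelial markers summed to 21689 to 29818 in mdx against 2885 and 3394 in wild type (their part was not tested). Acvr1, encoding the BMP and activin type I receptor ALK2, had 898, 1047 and 928 in mdx against 529 and 411 in wild type. Among type II receptors, Bmpr2 had 4952, 5190 and 4137 in mdx against 2460 and 3094 in wild type, and Acvr2a, which binds activins, had 1122, 1315 and 1713 against 618 and 791. These 3 genes had no overlap between genotypes and log2 fold changes of 1.03 (Acvr1, SE 0.26, limma adjusted p = 0.0194), 0.78 (Bmpr2, SE 0.19, limma adjusted p = 0.0171) and 0.96 (Acvr2a, SE 0.26, limma adjusted p = 0.0272). Bmpr1a, the main BMP type I receptor gene here by level, had 2403, 2424 and 2107 in mdx against 2886 and 3810 in wild type (log2 difference -0.52, 95% interval -0.97 to -0.08, limma adjusted p = 0.0822). Bmpr2 stood to Bmpr1a per kb at 0.952, 0.989 and 0.907 in mdx against 0.394 and 0.375 in wild type.

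Bambi, encoding a pseudoreceptor that lacks a kinase and dampens TGF-beta and BMP signals, had the largest fall of the tested signalling genes. It had 198, 127 and 111 in mdx against 990 and 1188 in wild type, with every mdx library far below both wild-type libraries. Bambi fell by 2.93 on the log2 scale (SE 0.39, 95% interval -3.82 to -2.04, limma adjusted p = 0.000968). Acvr1b, encoding the activin type I receptor ALK4, Acvr2b and Bmpr1b overlapped between the genotypes, with log2 differences of -0.30, -0.15 and -0.44 and limma adjusted p of 0.615, 0.844 and 0.727. Bmpr1b was the lowest receptor gene per kb on average in either genotype, at 10.2 in mdx and 15.8 in wild type, and its normalized counts were 52 to 57 in mdx against 44 and 125 in wild type.

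The smaller receptor differences changed with single libraries. Acvr1 lost its call without mdx 1, 2 or 3 (limma adjusted p = 0.0571, 0.0717 and 0.066), as did Acvr2a (0.0521, 0.0858 and 0.0952). Bmpr2 lost its call without mdx 1 or 2 (limma adjusted p = 0.0789 and 0.0762). The log2 difference of Bmpr1a was -0.72 without wild type 1 and -0.32 without wild type 2. After length and GC correction, Bmpr2 and Acvr2a were not called (log2 fold change 0.39 and 0.84, limma adjusted p = 0.166 and 0.0767), whereas Tgfbr3 was called lower (-0.75, 0.0284).

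**Figure D2:**
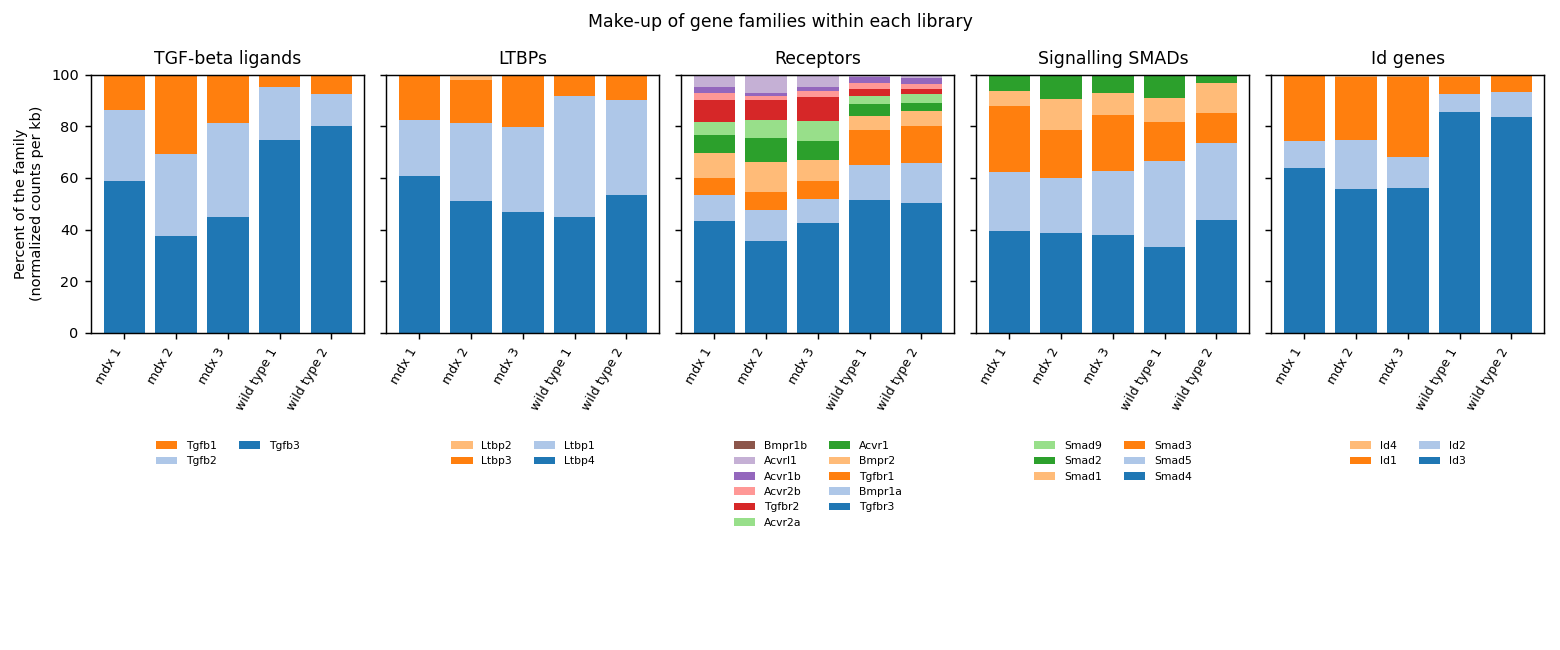
Share of each gene (vertical axis, percent of normalized counts per kb of transcript) within 5 families, 1 bar per library with the 3 mdx libraries left of the 2 wild-type libraries. Tgfbr2 takes 7.74% to 9.09% of the receptor genes in mdx against 1.92% and 2.80% in wild type, and Id3 takes 55.7% to 63.9% of the Id genes in mdx against 83.4% and 85.3% in wild type.

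Of the 6 signalling SMAD genes, 1 was called, as lower in mdx. Smad5, a BMP-responsive SMAD, had 2300, 1957 and 2417 in mdx against 3997 and 3508 in wild type. Its ranges did not overlap, and it fell by 0.76 on the log2 scale (SE 0.19, 95% interval -1.18 to -0.34, limma adjusted p = 0.0182). Smad1, which acts in the same arm, had 326, 639 and 466 in mdx against 642 and 795 in wild type, all mdx libraries below, and did not pass (log2 difference -0.63, 95% interval -1.42 to 0.15, limma adjusted p = 0.214). Smad9, the remaining SMAD of the BMP arm, stood near the floor with 6, 34 and 14 in mdx against 0 and 2 in wild type. In the TGF-beta arm, Smad3 had 1996, 1327 and 1658 in mdx against 1386 and 1072 in wild type, and Smad2 had 807, 1031 and 852 against 1329 and 457. Both overlapped, with log2 differences of 0.43 (95% interval -0.13 to 0.98) and 0.19 (95% interval -0.73 to 1.12). The shared Smad4 had 2057, 1835 and 1920 in mdx against 2032 and 2667 in wild type (log2 difference -0.27, 95% interval -0.72 to 0.19, limma adjusted p = 0.355).

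Per kb, Smad4 was the most abundant signalling SMAD gene in 4 of the 5 libraries, at 38.7% ± 0.766 of the 6 genes in mdx (SD, n = 3) against 38.5% ± 7.57 in wild type (SD, n = 2). Smad5 made up 22.7%, 21.2% and 24.6% in mdx against 33.5% and 29.6% in wild type, and Smad3 averaged 22.0% ± 3.47 in mdx (SD, n = 3) against 13.4% ± 2.34 in wild type (SD, n = 2). In both genes these shares were apart between the genotypes, in opposite directions. The ratio of these BMP-arm genes overlapped between genotypes, since Smad5 stood to Smad1 at 4.05, 1.76 and 2.97 in mdx against 3.57 and 2.53 in wild type. The call on Smad5 ended without mdx 1, 2 or 3 (limma adjusted p = 0.0608, 0.064 and 0.0513), with equal library totals (0.108) and with quantile normalization (0.0672). The log2 difference of Smad2 was 0.96 without wild type 1 and turned to -0.57 without wild type 2.

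Of the 7 inhibitors inside the cell, 3 rose and 2 fell, and paralogs moved apart. Skil, encoding the SMAD co-repressor SnoN (chromosome 3, 31095058 to 31122577), had 2351, 2155 and 1877 in mdx against 8550 and 10981 in wild type. Its paralog Ski (chromosome 4, 155154075 to 155222592) had 5070, 5506 and 5598 in mdx against 1435 and 1922 in wild type. Neither gene's ranges overlapped. Skil fell by 2.19 on the log2 scale (SE 0.19, 95% interval -2.62 to -1.76, limma adjusted p = 0.000104), and Ski rose by 1.70 (SE 0.19, 95% interval 1.27 to 2.12, limma adjusted p = 0.000364). Per kb, Ski stood to Skil at 2.62, 3.11 and 3.63 in mdx against 0.204 and 0.213 in wild type, so the more abundant of the paralogs was Ski in every mdx library and Skil in both wild-type libraries. Tgif1, encoding a homeodomain co-repressor of SMADs, had 1099, 917 and 924 in mdx against 2000 and 2203 in wild type. It fell by 1.10 on the log2 scale (SE 0.21, 95% interval -1.58 to -0.63, limma adjusted p = 0.00569).

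Next came the ubiquitin ligases and inhibitory SMADs. Smurf1, encoding a ligase for receptors and BMP-responsive SMADs, had 1107, 1045 and 1493 in mdx against 350 and 471 in wild type, and rose by 1.56 on the log2 scale (SE 0.28, 95% interval 0.93 to 2.19, limma adjusted p = 0.00414). Its relative Smurf2 had 958, 1145 and 923 in mdx against 1133 and 1273 in wild type, with 1 mdx library inside the wild-type range, and did not pass (log2 difference -0.26, 95% interval -0.76 to 0.25, limma adjusted p = 0.426). Smad6, an inhibitory SMAD of the BMP arm, had 126, 97 and 185 in mdx against 12 and 36 in wild type. It rose by 2.53 on the log2 scale (SE 0.81), just inside the threshold (limma adjusted p = 0.049997). Smad7, the inhibitory SMAD of both arms, had 1016, 583 and 708 in mdx against 238 and 501 in wild type, without overlap, and did not pass (log2 difference 1.11, 95% interval 0.22 to 2.00, limma adjusted p = 0.0697). The call on Smad6 ended after length and GC correction (log2 fold change 1.85, limma adjusted p = 0.13). It also ended without mdx 1 (limma adjusted p = 0.125), mdx 2 (0.0956) or mdx 3 (0.169). The log2 difference of Smad7 was 1.64 without wild type 2 and 0.58 without wild type 1.

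Of the Id genes, which encode inhibitors of basic helix-loop-helix factors such as MyoD and are direct BMP targets, only Id3 was called by limma. Id3 (chromosome 4, 136143497 to 136145392) had 1489, 985 and 1482 in mdx against 3869 and 5596 in wild type. No mdx library came near the wild-type range, and Id3 fell by 1.84 on the log2 scale (SE 0.26, 95% interval -2.42 to -1.26, limma adjusted p = 0.00118). Id1 had 527, 392 and 743 in mdx against 274 and 407 in wild type, overlapped, and gave a log2 difference of 0.68 (95% interval -0.17 to 1.53, limma adjusted p = 0.219). Id2 had 379, 517 and 496 in mdx against 501 and 1007 in wild type (log2 difference -0.63, 95% interval -1.44 to 0.19, limma adjusted p = 0.237). Its log2 difference was -1.13 without wild type 1 and -0.12 without wild type 2. Id4 was low, at 49, 52 and 76 in mdx against 112 and 30 in wild type. Within the Id family, Id1 took 24.9%, 24.4% and 30.9% of the normalized counts per kb in mdx against 6.66% and 6.68% in wild type. Summed per kb, the 4 Id genes came to 1825, 1385 and 2072 in mdx against 3547 and 5249 in wild type.

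**Figure D3:**
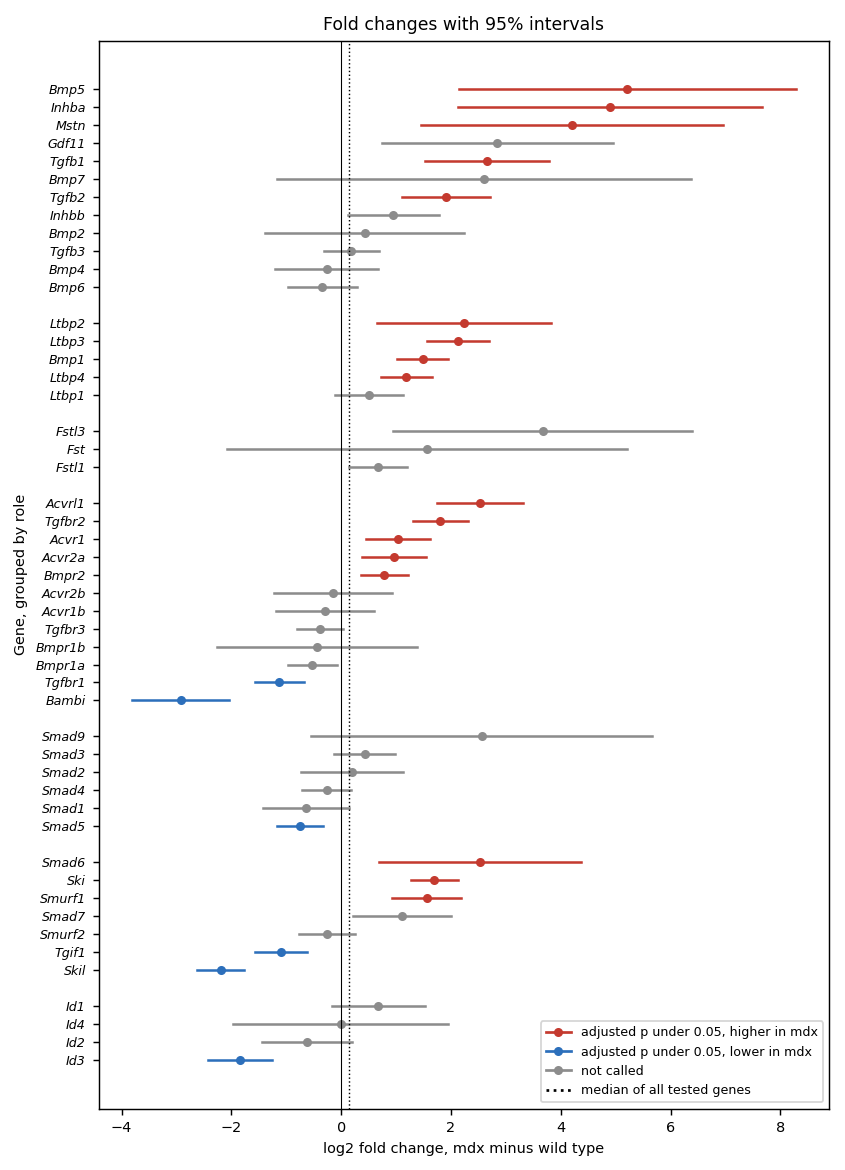
Log2 fold change (horizontal axis, mdx minus wild type) of the 49 tested genes with 95% intervals, grouped by role; the dotted line is the median of all tested genes, 0.13. The lowest estimates are Bambi at -2.93, Skil at -2.19 and Id3 at -1.84, and the wide intervals belong to genes with low values, such as Bmp7 and Fst.

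Other genes of the pathway were taken from lists drawn up with earlier results of these data known. Of 94 tested, 34 were higher and 7 lower in mdx, with a median log2 fold change of 0.85, against 14.6% higher and 10.3% lower among all tested genes. Genes that release TGF-beta from its latent form were higher in 11 of 16 cases and lower in 1. Thbs1, encoding thrombospondin-1, an activator of latent TGF-beta, had 3797, 5172 and 4085 in mdx against 283 and 230 in wild type (log2 fold change 4.07, limma adjusted p = 1.31e-05). Lrrc32, encoding the TGF-beta docking protein GARP, had 477, 323 and 185 in mdx and 0 in wild type (limma adjusted p = 0.00074), and entered the test through mdx alone. Mmp14, encoding a membrane metalloproteinase, rose by 2.14, and Furin, encoding the convertase that cuts the precursors, by 1.51 (limma adjusted p = 0.000227 and 0.00155). Furin was at 0.79 after length and GC correction and was not called with mean centring (0.25, limma adjusted p = 0.415).

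Matrix proteins and antagonists that bind ligands were higher in 9 of 16 cases (56.3%, against 14.6% of all tested genes) and lower in 2 (12.5%, against 10.3%). Bgn and Dcn encode biglycan and decorin, small proteoglycans that bind TGF-beta. Bgn had 6607, 5454 and 7514 in mdx against 984 and 933 in wild type, and Dcn had 5312, 2514 and 3401 against 659 and 890 (limma adjusted p = 3.61e-05 and 0.00121). Fmod, encoding fibromodulin, which is also among the tenocyte markers, had 4594, 1851 and 1802 in mdx against 16 and 64 in wild type (limma adjusted p = 0.000175). Fbn1, encoding fibrillin-1, the microfibril protein to which LTBPs attach, had 17927, 13219 and 13821 in mdx against 6940 and 5059 in wild type (limma adjusted p = 0.00164), and was not called after length and GC correction (log2 fold change 0.53, limma adjusted p = 0.069).

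Co-receptor genes were higher in 2 of 8 cases (25%, against 14.6% of all tested genes) and lower in 0 (against 10.3%). Rgma, encoding a BMP co-receptor, had 3069, 3230 and 4226 in mdx against 660 and 551 in wild type (log2 fold change 2.52, limma adjusted p = 0.000112). Eng, encoding endoglin, an endothelial co-receptor that acts with ALK1, had 1048, 657 and 858 in mdx against 219 and 182 in wild type (log2 fold change 2.06, limma adjusted p = 0.00231). None of the 8 other tested ligand genes was called by limma (0 of 8; 2 had an unadjusted p under 0.05). The lowest p-values among them belonged to Bmp3, with 121, 5 and 16 in mdx and 0 in wild type, and Gdf10, with 44, 3 and 42 in mdx and 0 in wild type (limma adjusted p = 0.119 and 0.126). Gdf10 passed without mdx 2 (limma adjusted p = 0.0432). Both genes entered the test through mdx alone, so this is no separate support for a rise.

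Of the 28 other regulators inside the cell, 6 were higher (21.4%, against 14.6% of all tested genes) and 3 lower (10.7%, against 10.3%). Crebbp and Ep300 encode histone acetyltransferases that SMADs recruit. Crebbp had 6936, 6163 and 6494 in mdx against 2271 and 1977 in wild type (log2 fold change 1.62, limma adjusted p = 0.000238), and Ep300 had 3543, 3328 and 3086 against 1930 and 2028 (0.74, 0.0149). Ldlrad4, encoding an inhibitor of SMAD2 and SMAD3 activation, had 532, 465 and 407 in mdx against 20 and 84 in wild type (limma adjusted p = 0.00456), and Stub1, encoding a ubiquitin ligase, had 299, 509 and 395 against 43 and 72 (limma adjusted p = 0.00438). Crebbp was at 0.87 after length and GC correction and was not called with mean centring (0.33, limma adjusted p = 0.154). Ep300 was not called after length and GC correction (log2 fold change 0.05, limma adjusted p = 0.865), nor without mdx 1 or 2 (0.0582 and 0.0547), and Ldlrad4 was not called without mdx 1 (0.0507).

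Common targets of the pathway were higher in 6 of 18 cases (33.3%, against 14.6% of all tested genes) and lower in 1 (5.56%, against 10.3%). Tgfbi, named for its induction by TGF-beta, had 1151, 1571 and 1397 in mdx against 0 and 3 in wild type (limma adjusted p = 3.69e-05). It entered the test through mdx alone, so its call is no separate support for a rise. Cilp, a matrix gene of cartilage and fibrotic tissue, had 5978, 3511 and 3668 in mdx against 84 and 91 in wild type (log2 fold change 5.57, limma adjusted p = 8.68e-06). Tsc22d1, a TGF-beta-stimulated transcription factor gene, rose by 2.29 (limma adjusted p = 0.000212).

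Of the 15 alternative settings, the replicate block gave the same log2 fold changes as leaving out mdx 3, so these are not separate checks. The falls of Bambi, Skil and Id3 and the rise of Acvrl1 stayed called in every setting that kept both wild-type libraries. Their log2 fold changes with 1 library left out ranged from -3.17 to -2.76 for Bambi, from -2.37 to -2.01 for Skil, from -2.11 to -1.58 for Id3 and from 2.39 to 2.59 for Acvrl1. The rises of Tgfbr2, Ski, Ltbp3 and Bmp1 were not called in 1 setting each, the length and GC correction with mean centring. Under that setting their log2 fold changes were 0.70, 0.49, 0.65 and 0.21 (limma adjusted p = 0.0514, 0.0875, 0.0602 and 0.43).

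**Figure D4:**
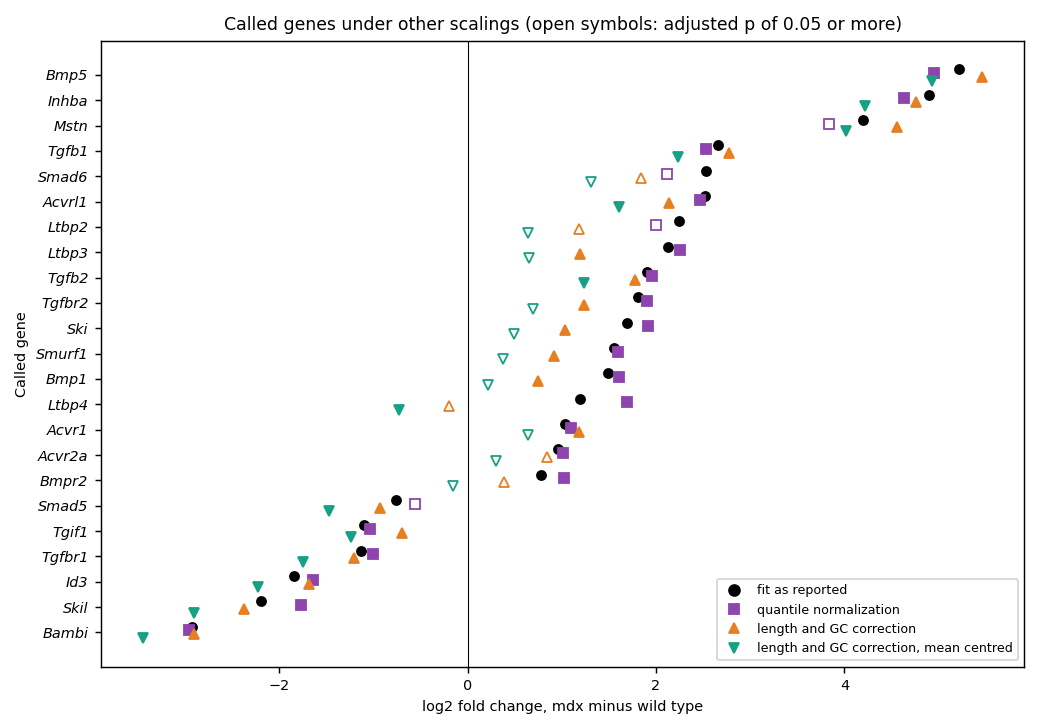
Log2 fold change (horizontal axis, mdx minus wild type) of the 23 called genes in the fit as reported and under 3 other scalings; filled symbols have a limma adjusted p under 0.05. Bambi, Skil and Id3 stay at the left with filled symbols, while Ltbp4 crosses 0 after length and GC correction (1.19 as reported, -0.19 corrected).

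Some of the called genes overlap other rows of the table on the opposite strand. Acvr2a overlaps Orc4, which had 783, 1074 and 681 in mdx against 937 and 812 in wild type. The library kit keeps strand, but the strand setting of the counting is not given in the sources used here, so reads of such genes may not be told apart.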

How the data were processed

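Total RNA of 3 mdx and 2 wild-type libraries was sequenced, from sorted cells with a stranded low-input kit, per the labels' protocols. The submitters' processing notes name STAR 2.6.1d, featureCounts 1.6.3, DESeq2 1.18.1 and mm10. The deposited values are treated as a score: normalized counts in whole numbers, scaled and rounded by the authors as read from the values (in mdx 1, 6 of the whole numbers from 1 to 30 never occur). The raw depth is therefore unknown. Values were taken as log2(value + 2), and genes with at least 10 in at least 2 libraries were fitted with limma 3.58.1 (R 4.3.3; mean trend, robust; genotype as the only term), with two-sided p-values adjusted by Benjamini-Hochberg over 18199 genes. Differences are mdx minus wild type. Lengths and GC content are those of the longest GENCODE M21 transcript (22649 genes matched). The fit was tested on simulated data. The members, lists and motifs were chosen with earlier results of these data known. Members called by the test, and the more abundant of the others, are given in every library. In each further list, up to 4 called genes of smallest p are named, or 2 where none was called. A few genes that this rule or the marker lists would name are not reported here. Alternatives changed the pseudocount, filter, scaling, test, block and libraries.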

Additional observations from a re-analysis of the deposited data

How the results depend on the processing

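The limma calls changed with the scaling, the test, the replicate block and single libraries, and the cause was not tested. Signalling genes called higher in mdx (17 as reported) numbered 6 after length and GC correction with mean centring, 10 with plain limma, which uses no trend and no robust step, and 9 to 18 with 1 library left out (9 without mdx 3, 10 without mdx 2, 18 without wild type 1). Those called lower (6 as reported) numbered 13, 3 and 5 to 8. Over all genes, the counts (2659 higher, 1868 lower) were 1454 and 3199 with mean centring, 1855 and 1150 with plain limma, and 1450 to 3308 and 1112 to 1853 with 1 library left out. The other pathway genes (34 higher, 7 lower) gave 20 and 16 with mean centring, and 23 to 41 and 2 to 8 with 1 library left out. Their lower calls numbered 1 with equal library totals (97.1% of calls higher, against 82.9% as reported), 2 with quantile normalization (94.1%) and 0 with plain limma, although 56 of the 94 had an unadjusted limma p under 0.05 in either direction in the fit as reported, as did 6933 of all 18199 genes.

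Plain limma ended the calls of Tgfb2, Ltbp2, Ltbp4, Tgfbr1, Acvr1, Acvr2a, Bmpr2, Smad5, Smad6, Smurf1 and Tgif1. Of these genes, mean centring also ended the calls of Ltbp2, Acvr1, Acvr2a, Bmpr2, Smad6 and Smurf1, and turned that of Ltbp4 to a fall. Log2 differences changed sign after length and GC correction, first with the median kept and then with mean centring, for Inhbb (-0.052 and -0.59), Ltbp1 (-0.10 and -0.64), Ltbp4 (-0.19 and -0.73), Smad2 (-0.10 and -0.64) and Smad3 (-0.021 and -0.56). With mean centring alone they did so for Tgfb3 (-0.42), Bmp2 (-0.20), Bmpr2 (-0.15), Fbn1 (-0.010) and Ep300 (-0.49). Id4 turned to 0.28 with the median kept and to 0.17 with equal library totals, Acvr2b to 0.032 with equal totals and Tgfbr3 to 0.44 with quantile normalization. With 1 library left out, the sign turned for Bmp2 (-0.34 to 1.19), Bmp4 (-0.70 to 0.14), Fst (-1.26 to 4.40), Acvr2b (-0.43 to 0.21), Bmpr1b (-1.17 to 0.29), Smad2 (-0.57 to 0.96) and Id4 (-0.93 to 0.90). Raw depth is unknown, so counting error at low values could not be given.

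The replicate block used the replicate numbers, of which 1 and 2 occur in both genotypes and 3 in mdx only. It therefore fitted mdx 3 exactly. Its log2 fold changes were those of the fit without mdx 3, such as 2.73 for Tgfb1. Same-numbered libraries did not deviate together (r = -0.0138 and -0.0173 across genes), so no pairing was detected. The 2 wild-type libraries deviate from their mean as mirror images, so this check cannot exclude a pairing. With the replicate block, 8 signalling genes were higher and 4 lower, against 1163 and 860 of all genes and 21 and 2 of the other pathway genes.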
